A study of Caenorhabditis elegans with 2 samples.

Results

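Genes for splicing factors and for the proteins of small nuclear ribonucleoproteins (snRNPs) were examined in a map of where the transcription factor CEH-34 sits on DNA in C. elegans embryos. They were taken by symbol: every nuclear protein-coding gene of the WBcel235 annotation whose name starts with snr-, rsp-, prp-, rnp- or uaf-, together with sfa-1. This gave 40 members out of 19973 nuclear protein-coding genes. There were 7 Sm protein genes (snr-), 8 SR protein genes (rsp-) and 25 others. The names follow gene families and not a test of function, so the list also holds rnp-8, whose product is known as a partner of a cytoplasmic poly(A) polymerase.

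The map came from chromatin immunoprecipitation followed by sequencing (ChIP-seq) of whole late embryos, 3.5 hours after synchronisation by egg bleaching. Per the labels, both samples were hermaphrodites of strain OP524, genotype unc-119(tm4063) III; wgIs524. That strain stably makes CEH-34 with a GFP-FLAG tag at its C-terminus from an integrated transgene, and an antibody against GFP was used. There were 2 biological replicates, each from its own biosample, in 1 group, with no second condition. CEH-34 is a homeodomain protein of the sine oculis family, known for its role in pharyngeal neurons, a small part of the embryo from which the chromatin was prepared. Signal from the factor in a few cells and weaker signal in many cells cannot be told apart. Candidate peaks on the ce11 build numbered 21725 in replicate 1, 23509 in replicate 2 and 29417 in the list called on both together. The thresholded list, filtered by how repeatable the ranking of peaks was between replicates, held 2508 peaks, 2490 of them on nuclear chromosomes. Read depths were not analysed here. With 1 group and no comparison of conditions, the values below are descriptions, and no test was made.

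Splicing removes introns from pre-messenger RNA. The U1, U2, U4 and U5 snRNPs each carry a ring of 7 Sm proteins around their small nuclear RNA, so the Sm genes serve every one of these particles. SR proteins, named for their stretches of serine and arginine, bind exons and help to recruit the splicing machinery. SF1 and U2AF read sequences towards the end of the intron. The Prp proteins, named after yeast mutants with defects in pre-mRNA processing, act within the snRNPs or during the steps of the reaction. These genes are used in most cell types, and many C. elegans genes of this kind lie in operons, in which 1 promoter serves several genes.

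A gene was called bound when the summit of a thresholded peak lay within 1000 bp of the start of at least 1 of its protein-coding transcripts, called its 5′ end here. By this rule 12 of the 40 members were bound (30.0%), where the share over all protein-coding genes was 8.65% (1727 of 19973). Of the Sm genes 3 of 7 were bound (42.9%), of the SR genes 5 of 8 (62.5%) and of the others 4 of 25 (16.0%). Single genes move these shares far in groups of this size, so the order of the Sm and SR shares is not firm. The 12 members were called by 11 summits, because rsp-1 and rsp-2 shared one. No bound member had a second thresholded summit. The deposited signal value, taken here as the strength of a peak, had a median of 123 over the bound members and ran from 79.4 to 279. Over all 1727 bound genes its median was 118.6, with quartiles of 93.0 and 167, so the members' peaks were of ordinary strength for this list.

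The DNA under the member summits is shown for the 4 strongest outside the chromosome whose sequence is not printed here. The summit shared by rsp-2 and rsp-1 and the summit of rsp-6 are added, chosen after their values were seen, to show the SR genes. Each line gives 101 bases centred on the summit, from the RefSeq sequence of WBcel235 (ce11 coordinates), plus strand, 5′ to 3′. The only capitals are the 6 bases of the E-box CAGCTG.
snr-1, chrIV:17087584-17087684: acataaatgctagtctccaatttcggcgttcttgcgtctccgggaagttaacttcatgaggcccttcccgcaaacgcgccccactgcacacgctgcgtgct
prp-19, chrIII:5172630-5172730: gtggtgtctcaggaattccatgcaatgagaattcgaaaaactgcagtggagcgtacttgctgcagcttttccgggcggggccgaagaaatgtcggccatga
prp-8, chrIII:8164007-8164107: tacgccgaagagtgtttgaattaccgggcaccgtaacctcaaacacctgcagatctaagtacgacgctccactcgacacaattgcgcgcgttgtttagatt
snr-4, chrV:11980019-11980119: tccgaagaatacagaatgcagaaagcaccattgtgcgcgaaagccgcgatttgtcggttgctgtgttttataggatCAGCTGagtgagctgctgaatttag
rsp-2 and rsp-1, chrII:11453172-11453272: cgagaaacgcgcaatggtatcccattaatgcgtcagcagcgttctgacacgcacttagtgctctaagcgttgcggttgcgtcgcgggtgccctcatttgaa
rsp-6, chrIV:7791362-7791462: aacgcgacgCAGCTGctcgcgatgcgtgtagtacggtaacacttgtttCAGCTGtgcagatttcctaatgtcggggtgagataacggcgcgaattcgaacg

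In base composition the member windows were near those of the other peaks. Over the 11 member summits the median GC content within 50 bp was 51.5%, and over all 2490 nuclear thresholded summits it was 49.5%. Motifs were looked for in the same windows, on either strand. The sine oculis core TGATAC was in 0 of 11 member windows, where 3.21% of all thresholded summits held it. The MEF3-type site TCAGGTT was in 0 of 11 (1.53% of all). The GA repeat GAGAGA, found at 28.8% of all thresholded summits, was also in 0 of 11, and widening the window to 100 bp on either side left it at 0, where 44.9% of all summits held it. CAGCTG was in 2 of 11 windows, at snr-4 and rsp-6 (3.94% of all). The absence of these letters from a window says nothing of which factor is present there.

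**Figure D1:**
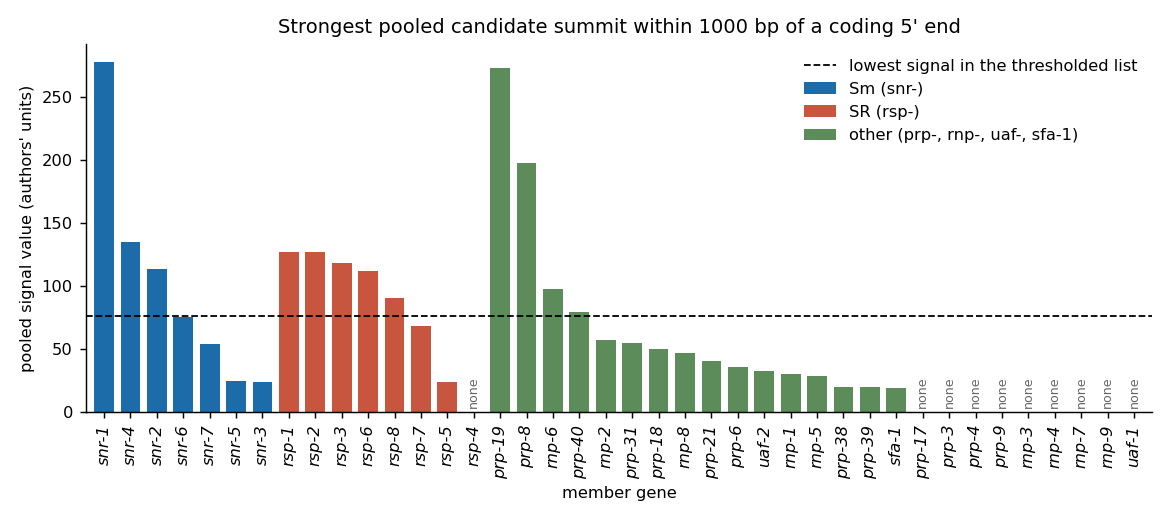
Signal value, in the authors' units, of the strongest pooled candidate summit within 1000 bp of a coding 5′ end for each of the 40 members. Members are grouped by class, bars start at 0 and "none" marks members without a candidate. The dashed line is the lowest signal in the thresholded list, 76.5. The 12 bars above it are the bound members, and snr-6 falls just short of it.

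Among the Sm genes, snr-1, snr-4 and snr-2 were bound. They encode the Sm proteins D3, D2 and B. The snr-1 summit had a pooled signal of 279 and ranked 127 of the 2490 nuclear thresholded peaks, the highest of any member. Its candidate peak had a signal of 133 in replicate 1 and 149 in replicate 2, and ranked 134 in each replicate's list. The summit lay 415 bp upstream of snr-1 (WBGene00004914, chromosome IV, 17088049 to 17088946, plus strand). It lay closer, at 196 bp, to the 5′ end of snx-13, a sorting nexin gene that runs the other way.

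The snr-4 summit had a pooled signal of 135 and rank 896, with 73.9 in replicate 1 and 64.4 in replicate 2. It lay 346 bp upstream of snr-4 (WBGene00004917, chromosome V, 11978508 to 11979723, minus strand), with no other coding 5′ end in the window. It also lay 49 bp from T11F9.15, annotated as a small nuclear RNA gene. Of the 11 member summits this was the only one within 200 bp of a tRNA, rRNA, snRNA or snoRNA gene, as were 259 of all 2490 nuclear thresholded summits (10.4%). Signal at snr-4 and at this RNA gene cannot be told apart, and without such peaks snr-4 was not bound.

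The snr-2 summit had a pooled signal of 113 and rank 1272, with 48.6 in replicate 1 and 64.2 in replicate 2. It lay 411 bp from the 5′ end of snr-2 and 55 bp from that of its divergent neighbour W08E3.4.

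The other 4 Sm genes had candidates below the threshold. The candidate at snr-6, the Sm E gene, had a pooled signal of 75.8, just under the lowest thresholded value of 76.5, and was found in replicate 1 (35.6) and replicate 2 (41.8). By contrast prp-40, at 79.4, lay just inside. The snr-7 candidate (53.8) had a counterpart within 100 bp in replicate 1 (17.0) and in replicate 2 (41.6). The pooled candidates of snr-3 (24.2) and snr-5 (24.5) had none within 100 bp in either replicate's list. All 7 Sm genes thus had a pooled candidate, as did 48.2% of all protein-coding genes, with signal values from 24.2 at snr-3 to 279 at snr-1. Not all of these candidates were upstream of the gene. That of snr-3 lay 143 bp downstream of the nearest coding 5′ end, inside the gene. Those of snr-5 and snr-7 lay 917 and 800 bp downstream, beyond the annotated end of the gene. The others lay upstream.

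Of the SR genes, rsp-1, rsp-2, rsp-3, rsp-6 and rsp-8 were bound. Their signals were confined to a narrow range, from 90.5 to 127, well below that of snr-1. The genes rsp-1 (WBGene00004698) and rsp-2 (WBGene00004699) lie head to head on chromosome II, with 406 bp between their annotated extents, and 1 summit at position 11453222 called both. Its pooled signal was 127 and its rank 1032. Its candidate had a signal of 38.1 and rank 2493 in replicate 1, and 89.0 and rank 606 in replicate 2. It lay 267 bp upstream of rsp-2. It was 752 bp from the nearest coding 5′ end of rsp-1 but 140 bp from the outer edge of that gene, which is set by a transcript not annotated as coding.

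The rsp-3 summit had a pooled signal of 118.5 and rank 1166, with 57.3 in replicate 1 and 62.6 in replicate 2. The gene encodes the worm counterpart of the mammalian factor known as ASF or SF2. The summit lay 261 bp upstream of rsp-3 and 135 bp from spin-4, which diverges from it. The rsp-6 summit had a pooled signal of 112 and rank 1302, with 62.9 in replicate 1 and 49.9 in replicate 2. It lay 183 bp upstream of rsp-6, and it was also 458 bp downstream of the 5′ end of the preceding short gene, C33H5.13. The rsp-8 summit, 608 bp upstream of a gene related to the splicing regulator Tra2, had a pooled signal of 90.5 and rank 1902. Its candidates had signals of 36.4 in replicate 1 and 52.8 in replicate 2, and no other coding 5′ end lay in the window.

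Of the SR genes that were not bound, rsp-7 came closest, with a pooled candidate of 68.2 that was found in replicate 1 (27.2) and replicate 2 (40.6). It lies head to head with snu-13, another spliceosome gene. The gene rsp-4, the worm counterpart of the mammalian SR protein SC35, had no candidate in any list. The pair snr-3 and rsp-5 is arranged like rsp-1 and rsp-2, with 403 bp between divergent genes of the list. There the shared promoter held no thresholded summit. The pooled candidate of both genes (signal 24.2, rank 19294) lay inside snr-3, 143 bp downstream of its nearest coding 5′ end. It had no counterpart within 100 bp in either replicate. Elsewhere in the window replicate 1 had a candidate of 21.3.

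Among the other 25 members, prp-19, prp-8, rnp-6 and prp-40 were bound. The prp-19 gene encodes a ubiquitin ligase that gives its name to a complex acting when the spliceosome is activated. Its summit had a pooled signal of 274 and rank 134, with 117 in replicate 1 and 155 in replicate 2. It lay 635 bp from the 5′ end of prp-19, 759 bp from that of emb-1 and only 40 bp from that of K10D2.5. The assignment to prp-19 therefore rests on the width of the window.

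The prp-8 gene encodes the central protein of the U5 snRNP. Its summit had a pooled signal of 198 and rank 353, with 91.3 in replicate 1 and 109 in replicate 2. The summits of the replicates were 1 bp apart. The pooled summit lay 316 bp upstream of prp-8 (WBGene00004187, chromosome III, 8164373 to 8172710, plus strand) and 674 bp from the divergent gene bath-42. Of the 12 bound members, only prp-8 and rsp-2 were bound under all 10 alternative rules tried.

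The remaining bound members were weaker. The summit at rnp-6, the counterpart of the poly-U binding splicing factor PUF60, had a pooled signal of 98.0 and rank 1659. Its signal was 64.0 (rank 951) in replicate 1 and 41.6 (rank 2553) in replicate 2, and it lay 142 bp from rnp-6 and 19 bp from the RNA interference gene rde-10. The summit at prp-40, a U1 snRNP factor in yeast, had 79.4 and rank 2358, with 37.8 in replicate 1 and 42.8 in replicate 2. It lay 173 bp upstream of prp-40 and 442 bp from the divergent gene clu-1.

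The genes sfa-1, uaf-1 and uaf-2 were not bound. For sfa-1, the SF1 gene, the pooled candidate had a signal of 18.9, near the bottom of the list, and for uaf-2, which encodes the small subunit of U2AF, it had 32.1. The gene of the large subunit, uaf-1, had no candidate in any list. The genes rnp-2 and rnp-7, which encode U1 snRNP proteins, and rnp-3, which encodes a U2 snRNP protein, were not bound either: rnp-2 had a pooled candidate of 57.4, with 45.6 in replicate 1 and no counterpart within 100 bp in replicate 2, and rnp-3 and rnp-7 had none. Of the genes of the splicing factor SF3a, prp-21 had a pooled candidate of 40.7 and prp-9 had none. The exon junction complex gene rnp-4 had no candidate either.

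No thresholded summit was found at the other prp- genes. Pooled candidates were found at prp-31 (54.9), prp-18 (50.2), prp-6 (35.9), prp-38 (19.7) and prp-39 (19.6). None was found at prp-3, prp-4 and prp-17. Weak candidates were listed for prp-17 in replicate 1 (16.4) and replicate 2 (14.3), and for prp-4 in replicate 1 (16.0), without a pooled one. The 2 at prp-17 were different sites, 3 bp downstream of the 5′ end in replicate 1 and 766 bp upstream in replicate 2. Of the rnp- genes not yet given, rnp-8 had a pooled candidate of 46.7, rnp-1 of 29.8 and rnp-5 of 28.6, and rnp-9 had none. In all, 18 of the 28 members that were not bound had a pooled candidate, as did 43.3% of all 18246 protein-coding genes that were not bound. For 7 of the 18 both replicates had a candidate within 100 bp of it. The matching share over all genes is not given here, so whether 7 is many or few cannot be said. The members' candidates had a median signal of 34.01, where genes over the whole annotation that had a candidate and were not bound had a median of 30.8.

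**Figure D2:**
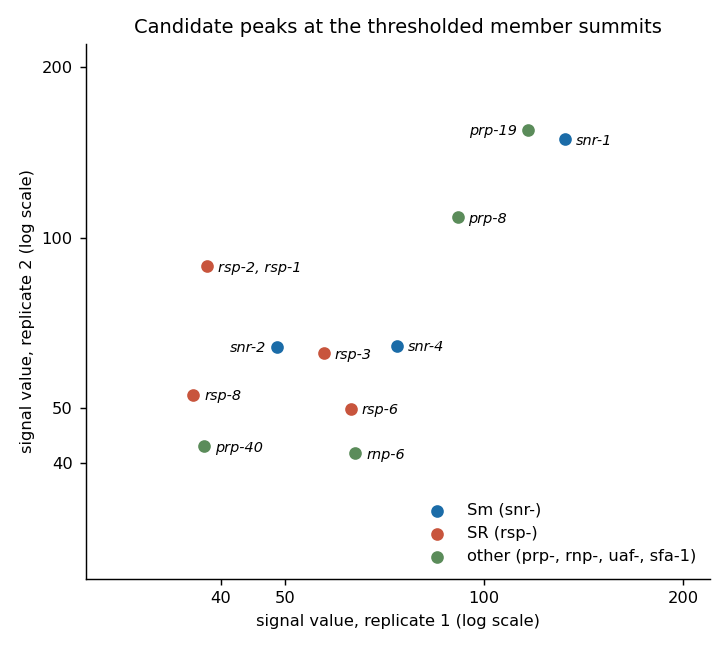
Signal value of the matching candidate peak in replicate 1 and replicate 2 for the 11 thresholded member summits (both axes logarithmic, colours mark the class). The peaks at snr-1, prp-19 and prp-8 are the 3 highest in both replicates. The summit of rsp-2 and rsp-1 is at 38.1 in replicate 1 and 89.0 in replicate 2, and the scales of the axes are those of separate lists.

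Both replicates had a candidate at every one of the 11 summits, with a median of 29 bp and at most 87 bp between their positions. These summits come from a list made from both replicates, so this does not measure the replicates separately. Each had the same signal and the same rank among all peaks in the thresholded list as in the pooled list. Before thresholding, 27 members had a candidate in replicate 1 (41.6% of all genes did), 25 in replicate 2 (43.4%), 23 in both (29.9%) and 30 in the pooled list (48.2%). A gene counted in both when each replicate had a candidate anywhere in its window, so the positions need not match, as at prp-17. When only the 2508 strongest peaks of 1 replicate were used, 11 members were bound either way. Replicate 2 alone (8.31% of all genes bound) lost rnp-6. Replicate 1 alone (8.88%) lost rsp-8 and prp-40 and gained rnp-2. Requiring a candidate within 100 bp in both replicates left all 12 (8.42%).

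Every bound member had its summit upstream of its 5′ end and outside annotated protein-coding genes. Over all bound genes the strongest summit was upstream in 86.6%. The median distance was 331 bp in the members and 280 bp over all bound genes. No member's summit lay within 100 bp of its 5′ end, as 15.1% of those of all bound genes did, and 9 of 12 lay within 500 bp (72.6% over all bound genes). Of the 11 summits, 9 had a 5′ end of more than 1 coding gene in the window, where 30.5% of all 1414 thresholded summits near a coding 5′ end did. These shares are not fully alike. Member summits were reached through genes, so a summit near several genes had more ways to be included. For 5 summits, those of snr-1, snr-2, rsp-3, prp-19 and rnp-6, the nearest 5′ end belonged to a gene outside the list.

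**Figure D3:**
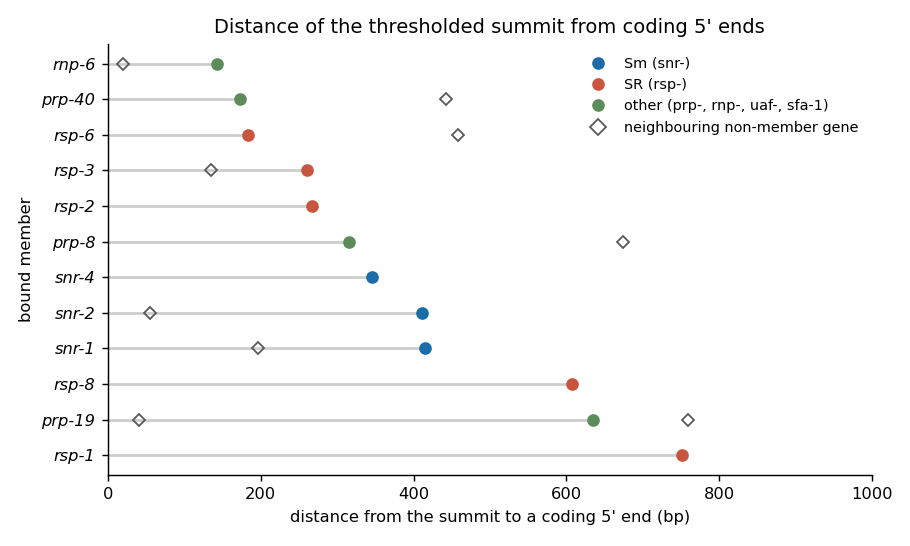
Distance in bp from the thresholded summit to the 5′ end of each of the 12 bound members (filled circles, coloured by class) and of neighbouring coding genes outside the list (open diamonds). For snr-1, snr-2, rsp-3, prp-19 and rnp-6 a diamond lies nearer than the member.

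Which rule is used to join summits to genes mattered more than which replicate. When a summit counted only for the nearest coding 5′ end, 6 members stayed bound (6.52% of all genes): snr-4, rsp-2, rsp-6, rsp-8, prp-8 and prp-40. A window of 500 bp left 9 members (6.39%), without rsp-1, rsp-8 and prp-19. A window of 2000 bp gave 16 (12.4%), adding rsp-4, rsp-5, rnp-1 and rnp-7. With only the most upstream 5′ end of each gene, all 12 were bound (7.95%). Letting any part of the peak reach the window gave 13 (9.58%), and leaving out peaks near structural RNA genes gave 11 (8.11%). The 1245 strongest nuclear peaks alone called 7 members (4.62%): snr-1, snr-4, rsp-1, rsp-2, rsp-3, prp-19 and prp-8.

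Members were also sorted by their nearest upstream coding gene. An upstream neighbour on the opposite strand within 1000 bp, as at a shared divergent promoter, was found for 23 of the 40 members, and for 21.3% of all protein-coding genes. No lower limit was set on the gap, so the share of all genes can include overlapping genes on opposite strands. Of the 23 members 9 were bound (39.1%), where 16.6% of all genes in this arrangement were. An upstream neighbour on the same strand within 500 bp, as inside an operon, was found for 10 members, and for 20.6% of all protein-coding genes. Of the 10 members only rsp-6 was bound. Over all genes in that position 4.97% were bound. Of the remaining 7 members snr-4 and rsp-8 were bound, where the share over all genes was 7.05%. No Sm gene had a close same-strand upstream neighbour and 2 of the 8 SR genes, rsp-4 and rsp-6, did.

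**Figure D4:**
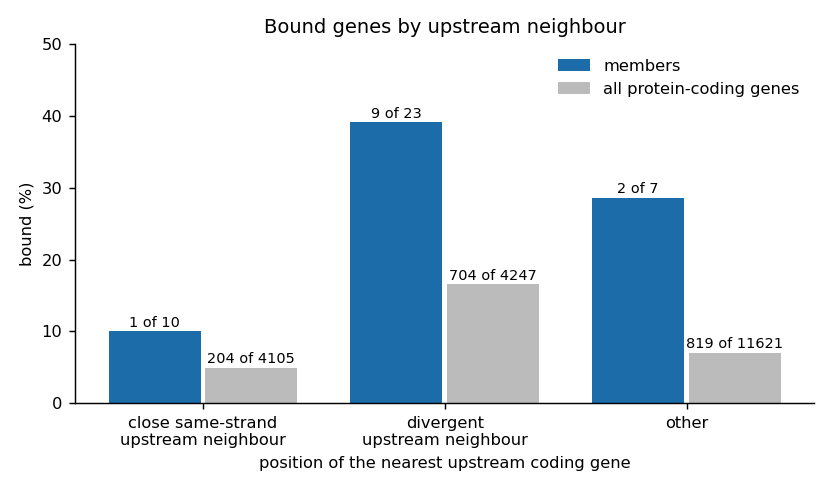
Percentage of genes bound, for the 40 members and for all 19973 protein-coding genes, by the position of the nearest upstream coding gene (bars start at 0; counts stand above the bars). Members with a divergent neighbour were bound in 9 of 23 cases and members with a close same-strand neighbour in 1 of 10.

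For the 10 members with a close same-strand neighbour, the first gene of the run was also looked up, a step chosen after the data were seen. That first gene was bound for 5 of the 10, where it was bound for 16.3% of all 4105 genes in this position. The prp-38 gene follows plrg-1, a gene of the Prp19-associated machinery, whose 5′ end had a thresholded peak of 268. The rnp-7 gene follows syf-2 (126), prp-3 follows smrd-1 (114.9), prp-39 follows hmgs-1 (91.9) and rnp-1 follows dpy-30 (90.7). The runs of rnp-2 and rnp-3 and of uaf-2, cyn-13 and sfa-1, which hold several splicing genes in a row, began with genes that were not bound. Runs were defined by distance alone, and whether each is transcribed as an operon was not tested.

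GC content within 1000 bp of the 5′ ends averaged 38.1% ± 2.97 (SD, 40 genes) in the members and 35.7% ± 3.37 (SD, 19973 genes) over all genes. It was 39.6% in the 12 bound members and 37.5% in the other 28, and 40.5% in the SR genes. Genes with 2 or more annotated 5′ ends were bound more often over the whole annotation (13.9%) than those with 1 (6.76%). With only the most upstream end of each, the share of the former was 11.3%. Among the members 5 of 15 with several ends and 7 of 25 with 1 end were bound. SR genes had a median of 2 ends and the other classes 1. The part of GC content and of the number of ends in the members' counts was not tested.

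Bound members were spread over 5 of the 6 chromosomes. Chromosome III held 5 of them, namely rsp-3, rsp-8, prp-8, prp-19 and prp-40, out of 12 members there, and 11.7% of all its genes were bound. Chromosome II held 2 of 8 (7.83% of all its genes), chromosome IV 2 of 7 (7.80%) and chromosome V 1 of 5 (5.43%). On chromosome I they were snr-2 and rnp-6, out of 7 (11.8%). The only member on chromosome X, rnp-9, was not bound (10.2%). In autosomal centres 7 of 22 members were bound and on the arms 5 of 17, where the shares of all genes were 9.54% and 6.97%.

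Further genes of the pathway were taken from lists drawn up by hand, which exclude the members. Of 7 Lsm genes, relatives of the Sm genes, only lsm-3 was bound, with a signal of 141. Of 39 other core spliceosome genes 7 were bound (17.9%), close to the 16.0% of the prp-, rnp-, uaf- and sfa-1 genes. The strongest were snrp-40.1, a U5 snRNP gene (196), the helicase gene mog-4 (163), syf-2 (126) and cwc-15 (125). Of 6 genes of snRNP assembly and SR protein kinases, spk-1, the SR protein kinase (114), and icln-1 (86.8) were bound.

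Regulators of alternative splicing had the largest share of these lists, with 15 of 29 bound (51.7%). The strongest were hrpf-1, an RNA-binding protein gene of the hnRNP F and H family (197), grld-1 (169), fust-1 (165) and hrpk-1 (130). Of these regulators, 23 of the 29 had 2 or more annotated 5′ ends, with a median of 3, and of the 6 with 1 end 2 were bound. Their median signal of 103 was below the 123 of the bound members. The difference between this list and the members was not tested.

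**Figure D5:**
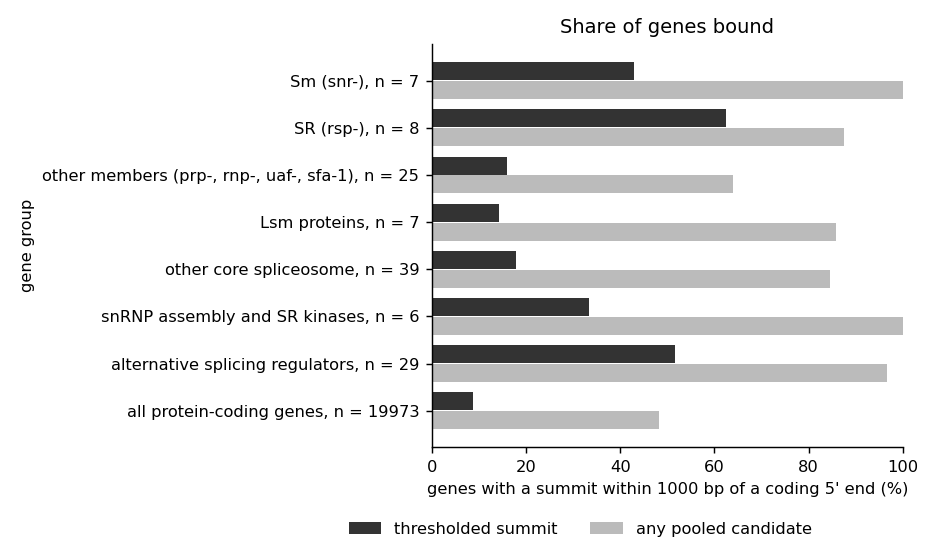
Percentage of genes with a thresholded summit (dark) or any pooled candidate (light) within 1000 bp of a coding 5′ end, for the 3 member classes, 4 further lists of splicing genes and all protein-coding genes (bars start at 0; n is the number of genes). The thresholded share was 62.5% in SR genes, 42.9% in Sm genes, 16.0% in the other members and 8.65% in all genes.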

How the data were processed

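The authors deposited peak lists for ce10 and ce11. Per the deposited file lists, candidate peaks were called in each replicate and in the pool of both, and a list thresholded by the irreproducible discovery rate was made. Aligner and caller were not given in the sources used here. Each deposited signal value is on the scale of its own list, so values of different lists stand side by side and are not compared, and the deposited −log10 q-values were not used. No control data were analysed here.

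The ce11 lists were joined to nuclear genes of WBcel235 (Ensembl release 115). A summit is a peak's start plus its offset. Replicate candidates were matched within 100 bp. The join was tested on simulated data. Python 3.11.15, pandas 2.3.3 and numpy 2.4.6 were used.

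The members and lists were chosen with earlier results of these data known. All members, the genes that share their summits and up to 4 of the strongest bound genes of each further list are named. Of the listed symbols, 7 of 8 Lsm, 39 of 45 core, 6 of 9 assembly and kinase, and 29 of 31 regulator symbols were in the annotation. Alternatives changed the window, the 5′ end used, the part of the list, the replicate, peaks near structural RNA genes, motif width and neighbour gap.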

Additional observations from a re-analysis of the deposited data

How the results depend on the processing

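Of the 40 recounts of bound members in all and by class, 32 stayed within 1.5 times the reported count. Raw counts were compared, and the share of all genes bound, 8.65% by the main rule, also changed with the rule. Counting only the nearest 5′ end gave 6 members in all, 1 Sm gene, 3 SR genes and 2 others (6.52% of all genes). The 1245 strongest peaks gave 7 in all, 3 SR genes and 2 others (4.62%), and a 500 bp window gave 3 SR genes (6.39%). These rules use fewer windows or fewer peaks. Leaving out 1 replicate gave 11 members either way, with 3 Sm genes, 4 to 5 SR genes and 3 to 4 others. Of all genes 8.31% were bound without replicate 1 and 8.88% without replicate 2. CAGCTG was at 1 member summit within 25 bp. At a same-strand gap of 200 bp, 0 of 8 members with such a neighbour were bound (4.54% of all genes in that position). At 1000 bp it was 2 of 11 (4.92%). Of the members with neither kind of neighbour, 3 of 9 were bound at 200 bp (6.87% of all such genes) and 1 of 6 at 1000 bp (7.52%). No paired analysis was possible because there was 1 group. The small number of members limits every share, and the lists hold no read counts.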
